A study of Mus musculus with 9 samples.

Results

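The genes described here are 36 mouse genes whose human counterparts cause or modify amyotrophic lateral sclerosis (ALS), spinal muscular atrophy (SMA) or inherited motor neuropathy. They were chosen by name, with earlier results of these data known, and all 36 were found among the 21457 features of the cholinergic nuclei. By role, 8 encode RNA-binding proteins, 16 act in protein quality control, autophagy and membrane traffic, 7 act in the cytoskeleton and axonal transport, 2 in redox balance and mitochondria, and 3 in other processes. C9orf72 appears in the matrix under the mouse name 3110043O21Rik and is called C9orf72 below.

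Single nucleus RNA sequencing was carried out on nuclei that were sorted for GFP from spinal cord of healthy adult Chat-IRES-Cre::CAG-Sun1/sfGFP mice, in which cells that express or once expressed choline acetyltransferase carry a green nuclear envelope. All mice carried both alleles, were 8 weeks old and received no treatment, so the values give baseline levels and no disease state. Nuclei of 12 mice were pooled by 4 (replicate 1 mixed males and females, replicate 2 males only, replicate 3 females only), and each pool was split into cervical, thoracic and lumbar/sacral cord, giving 9 libraries. Sex and pool cannot be told apart in this design. The Cre line also marks some neurons that are not cholinergic, which the authors recognised by a first clustering and removed. The 16042 remaining nuclei fall into 21 clusters named by the authors, namely 3 of skeletal motor neurons (S1 Type 3, S2 alpha and S3 gamma, 5054 nuclei), V1 to V10 of visceral motor neurons (5613 nuclei) and I1 to I8 of cholinergic interneurons (5375 nuclei).

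Skeletal motor neurons leave the spinal cord to innervate muscle and are the cells that die in ALS and SMA. Alpha motor neurons drive the force-producing fibers and gamma motor neurons the muscle spindle. Visceral motor neurons innervate autonomic ganglia, and cholinergic interneurons stay within the cord. Most ALS genes are used by every cell, and their products meet in a few processes: RNA processing and stress granules, clearance of proteins by chaperones, proteasome and autophagy, and transport along axons.

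Values are counts per 1000000 (CPM) of the deposited corrected counts, summed over the nuclei of a class or cluster within a library. Differences are given on the log2(CPM + 5) scale, which understates the change of genes with few counts, with their standard error (SE) and a Benjamini-Hochberg adjusted p over all genes tested by limma. Because the clusters were drawn by the authors from the same nuclei, a difference between classes describes those labels. The skeletal marker Tns1 was at 381 ± 61.3 CPM (SD, n = 9) in skeletal, 31.3 ± 3.46 in visceral and 5.90 ± 2.16 in interneuron sums, and the visceral markers Zeb2 and Fbn2 and the interneuron markers Pax2 and Mpped2 were likewise highest in their own class.

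Libraries stood apart in 3 ways that touch the values below. The cervical replicates 1 and 3, thoracic replicate 1 and lumbar/sacral replicate 1 had Malat1 at 3.03 to 3.40% of their corrected counts against 8.30 to 12.4% in the other 5, and the first principal component separated these sets in every class. The 4 microglia markers separated them too, at 28.0 to 37.1 CPM in the lower and 60.5 to 122 in the higher Malat1 set, and their part in the within-set values below was not tested. Within-set values are therefore given for differences that depend on them. Hoxa9, a gene of the thoracic and more caudal cord, was at 9.68 CPM in the library labelled cervical replicate 2 and at 0.507 in that labelled thoracic replicate 2, the reverse of the other replicates, and the region comparison below takes cervical and thoracic cord together. The 71 nuclei named S2 in the library labelled cervical replicate 2 went against the skeletal label, with Tns1 at 80.5 CPM against 311 to 450 in the other 8 libraries and the visceral markers at 205 against 0 to 47.3. Their interneuron markers were at 133 CPM against 2.65 to 47.7, and the cholinergic neuron marker Prph at 26.5 against 141 to 301. Their alpha MN markers (Rbfox3, Sv2b and Stk32a), at 489 CPM against 451 to 1263, lay within the range of the others. The same 3 genes also summed to 366 to 440 CPM in interneurons and 198 to 387 in visceral MNs, so they are not particular to alpha MNs. Called differences of the main gene list between S2 and another skeletal cluster are given, or their call is stated, with and without that library. Those of the longer gene lists include it. Most differences of the skeletal class include it too, and these 71 nuclei were among the 166 skeletal nuclei of that library. Nuclei per library ranged from 747 to 2825, and 66 of the 16042 shared a barcode with a nucleus of another library.

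Of the 36 genes, 32 passed the filter of 10 CPM in at least 3 sums for the comparison of classes, and 22 of these differed between skeletal and visceral MNs, 9 higher and 13 lower in skeletal MNs. Among all 11292 genes tested 66.7% were called, so 68.8% of the tested disease genes is near the background and is not a result about them as a group. Their median log2 difference was -0.07 against -0.04 over all genes. Against interneurons, 18 differed (8 higher and 10 lower in skeletal MNs, 56.3% against a background of 59.5%, of which 31.7% higher and 27.8% lower), with a median of 0.01 against 0.02. Between visceral MNs and interneurons 11 differed, 10 higher and 1 lower in visceral MNs (34.4% against 51.4%, of which 31.4% higher and 19.9% lower). Without the library term 17 of the 22, 16 of the 18 and 4 of the 11 calls were kept. A difference of at least 2-fold was called for 1 of the disease genes in each of the 3 comparisons, against 11.8%, 10.7% and 7.75% of all genes, and it was Hspb8 each time.

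**Figure D1:**
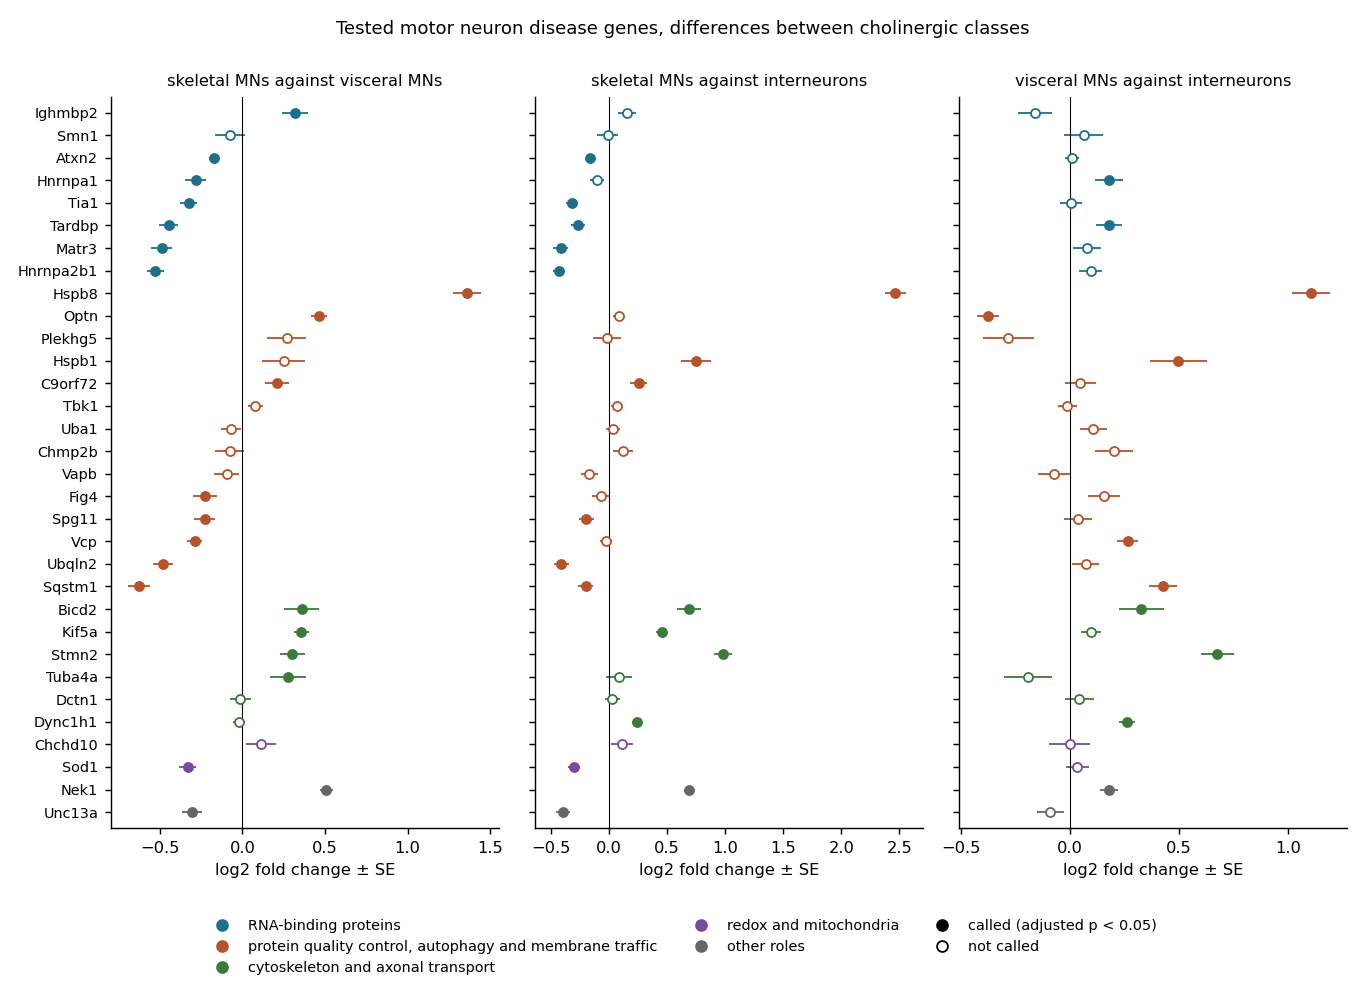
Log2 difference (log2(CPM + 5) scale, x axis) of the 32 tested genes (y axis) in the 3 comparisons of classes; points are estimates over 9 libraries, bars 1 SE, and filled points those with adjusted p under 0.05. Hspb8 lies farthest to the right in each, at 1.36, 2.47 and 1.11.

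Hspb8 encodes a small heat shock protein that works with BAG3 to deliver misfolded proteins to autophagy, and its mutations cause distal motor neuropathy. It had the largest difference between classes among the 32 tested genes. In skeletal MNs it ranged from 20.5 CPM in the lowest of 9 libraries through a median of 29.6 to 38.0 in the highest. In visceral MNs the lowest, median and highest were 6.47, 8.07 and 11.5, and in interneurons 0.442, 1.14 and 2.14. Over the 9 libraries the 3 classes did not overlap, with skeletal MNs highest and interneurons lowest. The log2 difference between skeletal and visceral MNs was 1.36 (SE 0.09, adjusted p = 1.22e-11), and against interneurons it was 2.47 (SE 0.09, adjusted p = 1.03e-15). Groups that do not overlap were found for 17.1% of all genes between skeletal and visceral MNs, and for 2 of the 32 disease genes, Hspb8 and Optn. Against interneurons it held for 16.5% of all genes and for Hspb8 and Stmn2, and between visceral MNs and interneurons for 11.3% and for Hspb8.

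A corrected count of Hspb8 was present in 22.3% ± 5.84 (SD, n = 9) of skeletal, 6.94% ± 3.61 of visceral and 1.09% ± 0.903 of interneuron nuclei. With nuclei thinned to 4600 corrected counts the shares were 13.4%, 3.93% and 0.513%. Nuclei below that total were left out, 8.63% of all and 44.1% of those in lumbar/sacral replicate 1. As a measure of background, the astrocyte gene Aqp4, which neurons should lack, had a count in 0.646%, 0.172% and 0.486% of the same classes. Over libraries the interneuron share of Hspb8 (0.272 to 3.11%) overlapped that of Aqp4 (0 to 1.24%). The abundant oligodendrocyte gene Mbp had a count in 34.7%, 20.5% and 15.9%, and the part of such free RNA was not tested. Median corrected totals per nucleus were 7393, 7519 and 6986.

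Hspb1, the related small heat shock protein mutated in motor neuropathy, was low throughout. It stood at 1.54, 7.33 and 10.6 CPM (lowest, median, highest of 9 libraries) in skeletal MNs, at 1.07, 4.62 and 14.4 in visceral MNs and at 0.221, 1.94 and 5.51 in interneurons. All 3 ranges overlapped. It was higher in skeletal MNs than in interneurons in 9 of 9 libraries (log2 difference 0.75, SE 0.13, adjusted p = 4.12e-05) and higher in visceral MNs than in interneurons in 8 of 9 (0.50, SE 0.13, adjusted p = 0.00300), a call that ended without the library term. Its difference between skeletal and visceral MNs of 0.25 (SE 0.13) had an adjusted p of 0.0972, and of 0.0190 without the library labelled cervical replicate 2.

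Both small heat shock genes are targets of heat shock factor, which binds inverted repeats of nGAAn, and their upstream sequences are shown because these were the called genes with the largest difference between classes and between skeletal subtypes among the chaperones. The RefSeq windows (GRCm38.p6) of 250 bases are given 5′ to 3′ on the gene's strand, with matches to GAANNTTC in capitals. The Hspb1 window, chr5:135887669-135887918 on the plus strand, ends at the base before the transcription start, and the Hspb8 window, chr5:116422845-116423094 on the minus strand, runs on to 20 bases after it.
Hspb1: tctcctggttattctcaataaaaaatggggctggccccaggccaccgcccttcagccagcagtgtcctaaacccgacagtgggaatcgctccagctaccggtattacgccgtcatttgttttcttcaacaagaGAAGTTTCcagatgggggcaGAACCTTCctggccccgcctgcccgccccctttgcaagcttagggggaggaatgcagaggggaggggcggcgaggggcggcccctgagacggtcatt
Hspb8: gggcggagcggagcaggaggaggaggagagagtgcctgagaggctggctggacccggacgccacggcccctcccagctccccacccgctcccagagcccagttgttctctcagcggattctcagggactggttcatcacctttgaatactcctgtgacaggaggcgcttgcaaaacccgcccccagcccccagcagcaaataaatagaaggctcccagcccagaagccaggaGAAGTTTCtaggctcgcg
The Hspb1 window held matches 117 and 97 bases before its start, and the Hspb8 window 1 match, at position 3 after its start. Windows from 250 bases before to 50 after the start were given for 31 of the 36 genes (not for Matr3, Ubqln2, Kif5a, Stmn2 and Nek1). GAANNTTC or TTCNNGAA, each its own reverse complement, stood in 7 of the 31 (Anxa11, Hnrnpa2b1, Hspb1, Hspb8, Optn, Sod1 and Vcp), or 22.6%, against 15.1% of all 32851 windows. The 22.6% counts genes with a match in any of their windows, whereas the 15.1% counts single windows. A match is a run of letters and not a shown site.

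Among the other genes of protein clearance, Optn and Sqstm1 encode autophagy receptors that bind ubiquitin and LC3, and they differed in opposite directions. Optn was at 66.0, 71.2 and 91.1 CPM (lowest, median, highest) in skeletal MNs, at 44.5, 53.2 and 62.9 in visceral MNs and at 58.4, 66.6 and 81.6 in interneurons. Its skeletal libraries all lay above its visceral ones. The log2 difference was 0.46 (SE 0.05, adjusted p = 5.53e-08) between skeletal and visceral MNs and -0.38 (SE 0.05, adjusted p = 2.04e-06) between visceral MNs and interneurons, so that visceral MNs were lowest.

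Sqstm1 was higher in visceral MNs. In the 4 libraries with lower Malat1 it was at 33.7 to 47.0 CPM in skeletal and 56.5 to 66.8 in visceral MNs, and in the other 5 at 80.8 to 118 and 145 to 189. Within each set the classes did not overlap, whereas over all 9 libraries they did. The log2 difference was -0.63 (SE 0.06, adjusted p = 2.26e-08), lower in skeletal MNs in 9 of 9 libraries, and within the lower and higher Malat1 sets it was -0.48 and -0.74. Against interneurons, visceral MNs were also higher by 0.43 (SE 0.06, adjusted p = 9.29e-06). Without the library term the calls ended, with adjusted p = 0.0950 and 0.334.

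Ubqln2, a shuttle of ubiquitinated proteins to the proteasome, was low and lay at 1.88, 3.73 and 7.47 CPM in skeletal and 5.16, 7.32 and 13.4 in visceral MNs. The skeletal value was lower within each of 9 libraries (-0.48, SE 0.06, adjusted p = 6.21e-07), although the ranges overlapped. Vcp, the segregase that extracts ubiquitinated proteins, was at 64.8 ± 11.5 CPM (SD, n = 9) in skeletal, 80.7 ± 16.8 in visceral and 66.4 ± 14.3 in interneuron sums. It was lower in skeletal than visceral MNs (-0.29, SE 0.05, adjusted p = 1.64e-05) and higher in visceral MNs than interneurons (0.26, SE 0.05, adjusted p = 7.81e-05), the latter with adjusted p = 0.102 without the library term.

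The remaining tested genes of this role moved little. Spg11, needed for lysosome reformation, and Fig4, a phosphoinositide phosphatase of endosomes, were each 0.23 lower in skeletal than visceral MNs (adjusted p = 0.00350 and 0.0104). C9orf72, a regulator of autophagy and membrane traffic, was 0.21 higher (SE 0.07, adjusted p = 0.0158), with 22.9 ± 3.19 CPM against 19.1 ± 2.09 (SD, n = 9). No difference between these classes was called for Tbk1 (the kinase that activates optineurin), Vapb, Chmp2b, Uba1 and Plekhg5, the last with 0.27 (SE 0.12) and adjusted p = 0.0513, or 0.0121 without the library labelled cervical replicate 2. Of the 14 tested genes of the role, 3 were higher and 5 lower in skeletal than visceral MNs, with a median of -0.07. This is 57.1% called against 66.7% of all genes (30.1% higher and 36.7% lower).

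Most RNA-binding proteins were lower in skeletal than visceral MNs. Of 8 tested, 6 were lower and 1 higher than in visceral MNs, against 36.7% lower and 30.1% higher among all genes tested, with a median of -0.30. Against interneurons 5 were lower and none of the 8 higher, with a median of -0.22. That share called, 62.5%, is near the 59.5% of all genes (27.8% lower and 31.7% higher). The largest of these differences was below 1.5-fold.

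Hnrnpa2b1, an hnRNP of RNA splicing and transport, was at 74.7, 93.4 and 110 CPM (lowest, median, highest) in skeletal and 93.9, 122 and 171 in visceral MNs. It was lower in skeletal MNs within each of the 9 libraries (-0.53, SE 0.05, adjusted p = 1.03e-08), and also lower than in interneurons (-0.43, SE 0.05, adjusted p = 2.57e-07). Tardbp encodes TDP-43, the protein that aggregates in most ALS, and lay at 45.4, 53.7 and 68.3 CPM in skeletal, 60.8, 73.9 and 95.2 in visceral and 54.4, 70.4 and 82.0 in interneuron sums. The skeletal value was again lower in 9 of 9 libraries than the visceral one (-0.45, SE 0.06, adjusted p = 9.91e-07), with ranges that overlapped.

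Matr3, a nuclear matrix protein that binds RNA, was at 24.8, 38.7 and 64.2 CPM in skeletal and 38.4, 59.2 and 95.9 in visceral MNs. Its log2 difference was -0.49 (SE 0.06, adjusted p = 8.35e-07) against visceral MNs and -0.41 (SE 0.06, adjusted p = 1.01e-05) against interneurons, lower in 9 of 9 libraries each time. Tia1, which nucleates stress granules, Hnrnpa1 and Atxn2, a modifier of TDP-43 toxicity, were lower than in visceral MNs by smaller amounts (-0.33, -0.28 and -0.17). Tardbp and Hnrnpa1 were each 0.18 higher in visceral MNs than in interneurons (adjusted p = 0.0150 and 0.0216). Hnrnpa1 has processed pseudogenes in the mouse, and how reads shared with them were counted is not given in the sources used here.

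The 2 genes of SMA and a related neuropathy did not follow this direction. Smn1, the gene lost in SMA, which loads Sm proteins onto small nuclear RNAs, was at 12.6 ± 3.23 CPM (SD, n = 9) in skeletal, 13.4 ± 2.56 in visceral and 12.6 ± 2.00 in interneuron sums. Its difference between skeletal and visceral MNs was -0.07 (SE 0.09, adjusted p = 0.488). Ighmbp2, a helicase mutated in SMA with respiratory distress, was higher in skeletal MNs in 8 of 9 libraries (0.32, SE 0.08, adjusted p = 0.00111), with a median of 10.6 CPM against 8.07 in visceral MNs, and 10.9 for interneurons.

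Among the cytoskeleton and axonal transport genes the called differences were in the other direction. Of 6 tested, 4 were higher and none of the 6 lower in skeletal than visceral MNs (median 0.29), 4 were higher and none lower than in interneurons (median 0.35), and 3 were higher and none lower in visceral MNs than in interneurons. The shares over all genes were 30.1% higher and 36.7% lower, 31.7% and 27.8%, and 31.4% and 19.9%, so that the 66.7% called in the first comparison equals the background. Stmn2 encodes stathmin-2, a microtubule regulator for axon growth whose human transcript is misspliced when TDP-43 is lost. It was at 335, 358 and 406 CPM in skeletal, 187, 293 and 388 in visceral and 147, 178 and 215 in interneuron sums. Skeletal MNs and interneurons did not overlap, while visceral MNs spread across the gap between them. The differences were 0.98 (SE 0.08, adjusted p = 4.44e-10) for skeletal MNs against interneurons, 0.68 (SE 0.08, adjusted p = 2.27e-07) for visceral MNs against interneurons and 0.30 (SE 0.08, adjusted p = 0.00176) for skeletal against visceral MNs.

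Bicd2, an adaptor that links dynein to its cargo and is mutated in a form of SMA of the legs, was at 14.5, 39.3 and 64.5 CPM in skeletal, 19.3, 28.1 and 38.8 in visceral and 12.6, 22.1 and 33.0 in interneuron sums. The skeletal libraries spread most, with the 4 libraries of lower Malat1 highest at 46.0 to 64.5. The difference of 0.36 between skeletal and visceral MNs (SE 0.10, adjusted p = 0.00488) was 0.67 within the lower and 0.11 within the higher Malat1 set, and only 6 of 9 libraries were higher. Against interneurons Bicd2 was higher in 9 of 9 libraries (0.69, SE 0.10, adjusted p = 7.90e-06).

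Kif5a, the neuronal kinesin heavy chain, was at 201, 255 and 276 CPM in skeletal, 160, 186 and 225 in visceral and 149, 183 and 202 in interneuron sums. It was higher in skeletal MNs than in visceral MNs (0.36, SE 0.05, adjusted p = 5.92e-07) and interneurons (0.45, SE 0.05, adjusted p = 1.91e-08) in all 9 libraries. Tuba4a, an alpha-tubulin, was 0.28 higher in skeletal than visceral MNs (SE 0.11, adjusted p = 0.0340). Dync1h1, the dynein heavy chain, was at 219 ± 17.6 CPM (SD, n = 9) in skeletal, 223 ± 16.4 in visceral and 185 ± 14.3 in interneuron sums, and was higher than in interneurons by 0.24 and 0.26 (adjusted p = 8.69e-06 and 3.59e-06). Dctn1, a dynactin subunit, was called in none of the 3 comparisons.

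Of the last 2 roles, Nek1 and Sod1 differed most between skeletal and visceral MNs. Nek1, a kinase of the DNA damage response and cilia, was at 202, 267 and 342 CPM in skeletal, 154, 177 and 249 in visceral and 134, 152 and 221 in interneuron sums. Each library kept the order skeletal, visceral, interneuron. The libraries with lower Malat1 were the highest in every class, and over all 9 the ranges overlapped. The differences were 0.51 (SE 0.04, adjusted p = 4.57e-10) for skeletal against visceral MNs, 0.69 (SE 0.04, adjusted p = 4.24e-12) for skeletal MNs against interneurons and 0.18 (SE 0.04, adjusted p = 0.000973) for visceral MNs against interneurons.

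Sod1, the superoxide dismutase of the first known ALS gene, was lower in skeletal MNs, with a median over libraries of 16.4 CPM against 21.9 in visceral MNs and 20.5 in interneurons (-0.33 and -0.30, SE 0.05 each, adjusted p = 6.50e-06 and 3.09e-05). Unc13a, a synaptic vesicle priming protein whose variants modify ALS, was also lower than in visceral MNs (-0.31, adjusted p = 0.000237) and interneurons (-0.40, adjusted p = 1.50e-05). Chchd10, a mitochondrial protein, was not called in any comparison of classes.

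The 4 genes that did not pass the filter were Anxa11, Ccnf, Pfn1 and Trpv4, and they are given as values only. Trpv4, a cation channel mutated in motor neuropathy, had a count in 0.913% ± 0.321 (SD, n = 9) of skeletal, 0.133% of visceral and 0.304% of interneuron nuclei, in the range of Aqp4. Anxa11, which tethers RNA granules to lysosomes, was at 3.27 ± 1.01 CPM in skeletal, 2.10 ± 0.795 in visceral and 0.880 ± 0.484 in interneuron sums. Ccnf, a cyclin that recruits substrates to a ubiquitin ligase, had medians over libraries of 2.36, 2.17 and 1.85 CPM, and the actin regulator Pfn1 of 3.46, 6.10 and 6.71 CPM in the same order.

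Glial markers also differed between the classes. The 6 oligodendrocyte markers summed to 80.5 ± 13.4 CPM (SD, n = 9; range 56.0 to 93.0) in skeletal, 53.8 ± 7.04 (37.8 to 62.3) in visceral and 48.0 ± 7.33 (39.3 to 59.5) in interneuron sums. The 5 astrocyte markers summed to 23.8 (21.1 to 26.7), 27.9 (17.4 to 48.4) and 51.6 (40.5 to 73.4), and none of either list was at 0. Their part in the differences of the disease genes was not tested.

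The comparison of skeletal subtypes asked which disease genes differ between alpha MNs, the large fast-conducting cells that are lost early in ALS, and gamma or Type 3 MNs. Of the 36 genes, 31 passed the filter here, all but the 4 named above and Ubqln2. Between alpha (S2) and gamma (S3) MNs 10 were called, 8 higher and 2 lower in alpha MNs, or 32.3% against 31.1% of the 11465 genes tested (17.6% higher and 13.5% lower), a share near the background. Between Type 3 (S1) and alpha MNs 10 were called, 3 higher and 7 lower in Type 3 MNs, against a background of 25.4% (12.3% higher and 13.1% lower). Between Type 3 and gamma MNs 2 were called, 1 in each direction, or 6.45% against 19.8% (11.1% higher and 8.69% lower). At 2-fold 0 of these 2 were called, against 5.33%. Both comparisons with alpha MNs share the same S2 sums. Without the library labelled cervical replicate 2 the counts were 13, 15 and 3, and all the calls above were kept. Other omissions ended calls. Of the 10 between alpha and gamma MNs, 7 were kept without cervical replicate 1, 4 without the pool of replicate 1, 3 without that of replicate 3 and 4 without the library term. Of the 10 between Type 3 and alpha MNs, the same omissions kept 8, 5, 6 and 5.

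Plekhg5, a guanine nucleotide exchange factor that acts in autophagy of synaptic vesicles and is mutated in a motor neuron disease, differed most. In S2 it was at 17.7, 57.2 and 84.4 CPM (lowest, median, highest), in S3 at 14.9, 20.8 and 40.8 and in S1 at 13.1, 23.1 and 30.3. The lowest S2 value was that of the library labelled cervical replicate 2, and the other 8 S2 values, from 45.8, lay above all S1 and S3 values. Over all 9 libraries no disease gene had S2 and S3 values that did not overlap, against 5.61% of all genes. Plekhg5 was higher in alpha than gamma MNs in 9 of 9 libraries, by 1.12 (SE 0.16, adjusted p = 2.41e-06), and lower in Type 3 than alpha MNs, at -1.15 (SE 0.16, adjusted p = 2.41e-06). Without the library labelled cervical replicate 2 these were 1.24 and -1.30, and within the lower and higher Malat1 sets the former was 1.31 and 0.96. Plekhg5 was the 1 disease gene called at 2-fold between alpha and gamma MNs, against 8.12% of all genes, and with Hspb1 made up the 2 between Type 3 and alpha MNs, against 5.23%.

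Hspb1 was at 0.981, 14.3 and 27.8 CPM in S2, at 0.411, 5.33 and 9.58 in S3 and at 0, 4.25 and 9.78 in S1. The library labelled cervical replicate 2 again gave the lowest S2 value, and 2 other S2 values (4.83 and 8.80) lay within the range of S3. It was higher in alpha than gamma MNs in 8 of 9 libraries (0.83, SE 0.20, adjusted p = 0.00199) and lower in Type 3 than alpha MNs in 8 of 9 (-1.03, SE 0.20, adjusted p = 0.000291). Without that library the differences were 1.05 and -1.18. Hspb8 by contrast was at 26.5 ± 11.6, 34.9 ± 7.74 and 25.6 ± 7.07 CPM (SD, n = 9) in S2, S3 and S1 and was not called between any pair of them. Without the library labelled cervical replicate 2, Hspb8 was called between Type 3 and gamma MNs (-0.40, limma adjusted p = 0.0310) and still not between S2 and either.

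Fig4 was at 25.5, 54.9 and 77.5 CPM in S2, at 23.9, 32.1 and 41.8 in S3 and at 25.5, 32.3 and 36.5 in S1. It was higher in alpha than gamma MNs in 9 of 9 libraries (0.66, SE 0.12, adjusted p = 9.70e-05), by 0.95 in the lower and 0.42 in the higher Malat1 set, and lower in Type 3 than alpha MNs (-0.64, SE 0.12, adjusted p = 0.000166). Without the library labelled cervical replicate 2, the lowest in S2, the former was 0.73 and the latter stayed called. Bicd2 was at 8.83, 52.8 and 93.2 CPM in S2, at 16.1, 34.6 and 43.2 in S3 and at 21.8, 31.2 and 52.2 in S1. Its difference between alpha and gamma MNs was 0.52 (SE 0.16, adjusted p = 0.0121), which was 1.01 in the lower but 0.13 in the higher Malat1 set, and 0.66 without the same library, again the lowest in S2.

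Stmn2 set Type 3 MNs apart. It was at 220, 261 and 312 CPM in S1, at 339, 387 and 424 in S2 and at 380, 401 and 474 in S3, so that no S1 value reached the other clusters. The log2 difference was -0.54 (SE 0.07, adjusted p = 8.54e-07) against alpha and -0.64 (SE 0.07, adjusted p = 3.41e-08) against gamma MNs. Groups that do not overlap were found for 3.1% and 6.85% of all genes in these comparisons. Nek1 was highest in Type 3 MNs, at 260, 361 and 413 CPM in S1, 179, 273 and 351 in S2 and 175, 210 and 291 in S3, and kept this order within each of the 9 libraries. It was 0.60 higher in Type 3 than gamma MNs (SE 0.06, adjusted p = 1.16e-08), 0.30 higher in Type 3 than alpha MNs (adjusted p = 0.000288) and 0.29 higher in alpha than gamma MNs (adjusted p = 0.000350). Without the library labelled cervical replicate 2 the last 2 were 0.26 and 0.32, and Stmn2 was at -0.54 between Type 3 and alpha MNs.

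**Figure D2:**
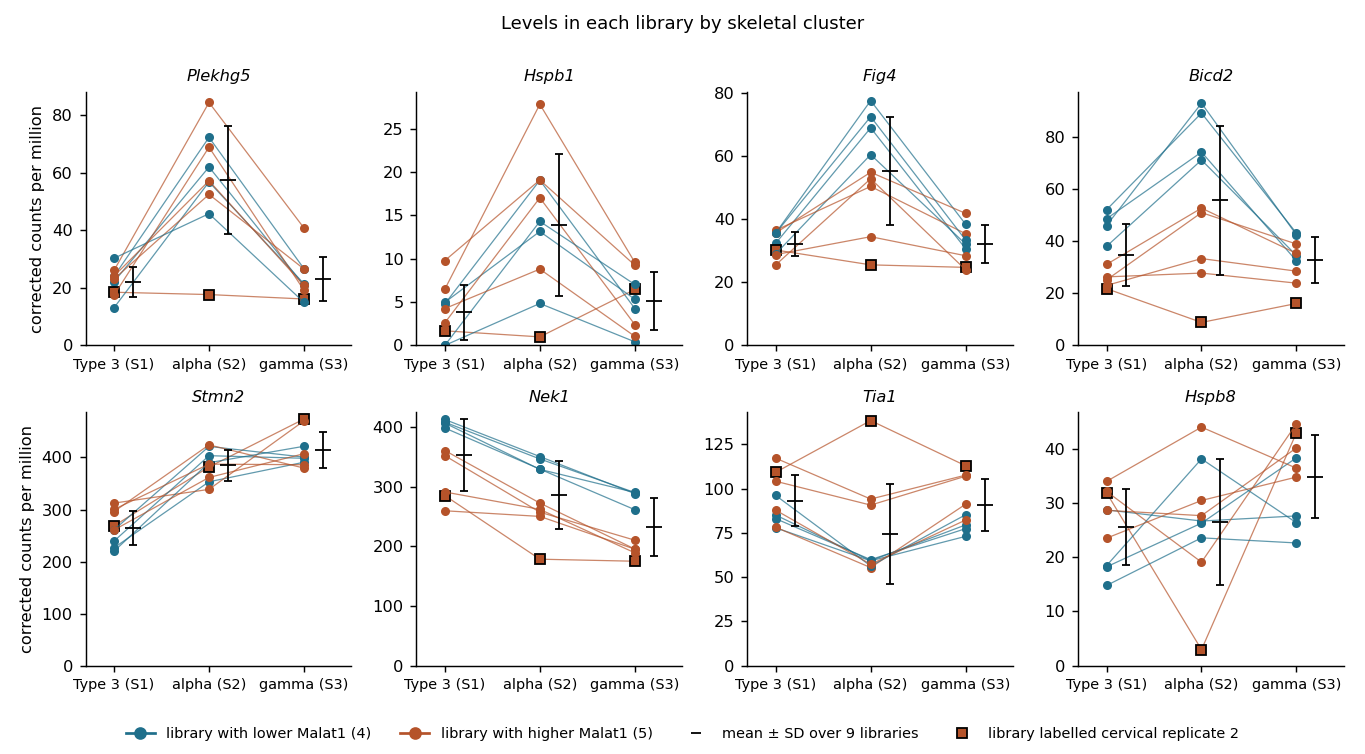
CPM (y axis) of 8 genes in the skeletal clusters S1 (Type 3), S2 (alpha) and S3 (gamma) (x axis), 1 point per library, with the mean and SD of 9 libraries; squares mark the library labelled cervical replicate 2. For Plekhg5 the 8 other S2 points, from 45.8 CPM, lie above all S1 and S3 points, and for Stmn2 all S1 points lie below S2 and S3.

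The other called differences between skeletal subtypes were smaller. Unc13a was 0.38 higher in alpha than gamma MNs (SE 0.11, adjusted p = 0.0105), at 80.9, 110 and 126 CPM in S2 against 60.1, 79.5 and 97.5 in S3. Tbk1 was 0.29 higher (adjusted p = 0.0215), at 49.6, 66.2 and 84.4 against 38.3, 53.9 and 63.4 CPM, and Dync1h1 0.17 higher (adjusted p = 0.0253). Lower in alpha MNs were Hnrnpa2b1 (-0.33, adjusted p = 0.0213), at 45.8, 74.5 and 131 against 80.2, 100.2 and 119 CPM, and Tia1 (-0.32, adjusted p = 0.00559), at 55.3, 59.2 and 138 against 73.0, 85.2 and 113 CPM. The highest S2 value of both came from the library labelled cervical replicate 2. Without it the differences between alpha and gamma MNs were 0.38 for Unc13a, 0.30 for Tbk1, 0.21 for Dync1h1, -0.41 for Hnrnpa2b1 and -0.39 for Tia1. Type 3 MNs were lower than alpha MNs for Dync1h1 (-0.32, SE 0.06, adjusted p = 0.000165), at 159, 199.7 and 229 against 188, 256 and 279 CPM, and for Bicd2 (-0.47, adjusted p = 0.0297) and Tbk1 (-0.29, adjusted p = 0.0277). Tia1 was 0.36 higher in Type 3 MNs (adjusted p = 0.00266), at 77.8, 87.8 and 117 CPM in S1, and Chchd10 was 0.58 higher in Type 3 than alpha MNs (SE 0.18, adjusted p = 0.0153), at 1.14, 12.6 and 18.4 CPM in S1 against 0, 5.89 and 11.8 in S2. Without the library labelled cervical replicate 2 the differences between Type 3 and alpha MNs were -0.35 for Dync1h1, -0.64 for Bicd2, -0.25 for Tbk1, 0.44 for Tia1 and 0.62 for Chchd10.

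Several of these calls rest on the libraries with lower Malat1. In the other 5 alone, 2 of the 10 calls between alpha and gamma MNs were kept, Plekhg5 (0.96, adjusted p = 0.00893) and Nek1 (0.32, adjusted p = 0.0366). With the library labelled cervical replicate 2 also left out, 6 of the 10 were kept. Oligodendrocyte markers summed to 112 ± 20.7 CPM (SD, n = 9; range 63.7 to 132) in S1, 107 ± 28.3 (52.0 to 149) in S2 and 44.5 ± 9.71 (31.6 to 57.6) in S3, and their part in the differences from gamma MNs was not tested.

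Across the 21 clusters the highest and the next cluster overlapped over libraries for every one of the 36 genes. The S2 values here include the library labelled cervical replicate 2. Hspb8 was highest in S3 (34.9 ± 7.74 CPM, SD, n = 9), followed by S2 (26.5) and S1 (25.6), and no count was present in I4. Plekhg5 was highest in I5 (79.1 ± 11.3), followed by S2 (57.5 ± 18.9), and lowest in I3 (14.0). Optn was highest in the interneuron clusters I3 (111) and I2 (105) and lowest in V8 (30.9), which had 3 libraries, all lumbar/sacral. Unc13a was highest in I5 (162 ± 22.2) and lowest in S3 (78.4 ± 11.2). Stmn2 was highest in S3 (414 ± 35.0), followed by V4 (393), and lowest in I5 (167), while Nek1 was highest in S1 (353 ± 60.0) and lowest in I5 (137). Hspb1 was highest in S2 (13.9 ± 8.16), followed by I8 (12.1), and lowest in I2 (0.268). Atxn2 varied least, by 1.37-fold between I6 and I7, the latter with 6 libraries.

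**Figure D3:**
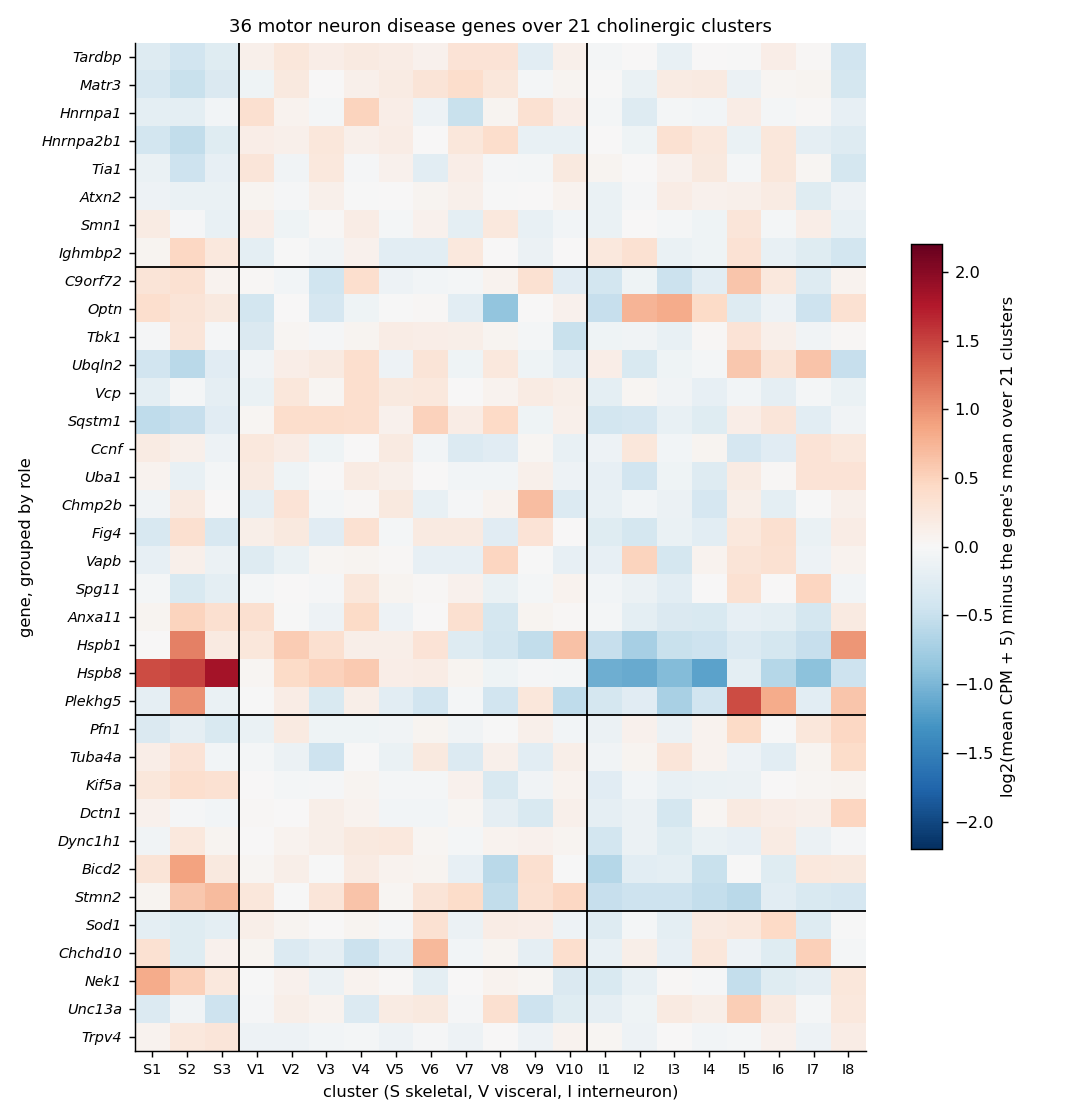
Level of the 36 genes (rows, grouped by role) in the 21 clusters (columns S1 to S3, V1 to V10, I1 to I8), as log2(mean CPM + 5) minus the mean of the gene over clusters; red is above and blue below that mean. Hspb8 is above its mean in S1 to S3 and below it in most I clusters, and Plekhg5 stands out in I5 and S2.

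The comparison of regions asked whether levels in lumbar/sacral cord, the source of the leg motor neurons, differ from those in the cervical and thoracic cord. By limma none of the tested disease genes was called, 0 of 30 for skeletal MNs (background 0.01%), 0 of 29 for visceral (background 4.27%) and 0 of 28 for interneurons (background 0.051%). At an unadjusted p under 0.05 there were 0, 3 and 0, against 402 of 9999, 1336 of 10031 and 331 of 9805 among all genes, so 3 of 29 is not a result about the disease genes. The median log2 difference of the tested genes was 0.14 against 0.12 over all genes for skeletal MNs, 0.02 against 0.06 for visceral MNs and 0.00 against 0.01 for interneurons.

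In visceral MNs the 3 genes with an unadjusted p under 0.05 were Stmn2, Vapb and Tbk1, and for each the regions did not overlap, which held for 9.63% of all genes. Stmn2 was at 187, 274 and 244 CPM in the lumbar/sacral replicates 1, 2 and 3, at 293, 375 and 329 in the libraries labelled cervical and at 284, 388 and 323 in those labelled thoracic. All 3 lumbar/sacral values were below the 6 others. The log2 difference was -0.50 (SE 0.15, adjusted p = 0.139). With the replicate as a block, since same-numbered libraries come from the same mice, it was called (SE 0.07, adjusted p = 0.00633, with 7.35% of all genes called in that fit). A term for the library set gave -0.55 (SE 0.09, adjusted p = 0.00434, with 8.3% called), and the differences within the lower and higher Malat1 sets were -0.67 and -0.47.

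In skeletal MNs the same difference for Stmn2 was 0.07 (SE 0.09, adjusted p = 0.900). The difference between the 2 classes was tested within libraries, and Stmn2 exceeded its visceral level in skeletal MNs by 0.68 in lumbar/sacral and 0.11 in the other libraries, a difference of 0.56 (SE 0.13, adjusted p = 0.0329, with 5.96% of all genes called). Visceral MNs exceeded interneurons by 0.38 in lumbar/sacral and 0.83 in the other libraries, a difference of -0.45 (SE 0.09, adjusted p = 0.0138, with 8.94% called). Skeletal MNs exceeded interneurons by 1.06 and 0.94, a difference of 0.12 that was not called (SE 0.14, limma adjusted p = 0.768). The makeup of the visceral class also changed with region. Cluster V8 held 30.9% of lumbar/sacral visceral nuclei and 0.0973% of the others, and Stmn2 was at 173 CPM there. Within the clusters found in both, the mean of Stmn2 was lower in lumbar/sacral cord in each of V1 to V7, as in V2 (209 against 273 CPM), V4 (329 against 425) and V6 (203 against 347), with ranges that overlapped in each. These 3 genes and the split by cluster were chosen after their values had been seen.

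**Figure D4:**
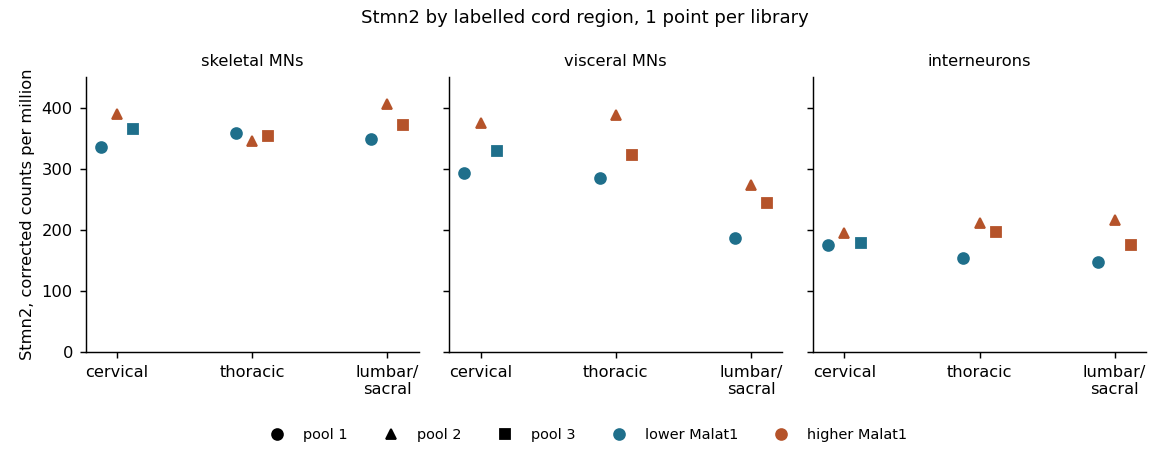
Stmn2 in CPM (y axis) by labelled region (x axis: cervical, thoracic, lumbar/sacral) and class (panels), 1 point per library, with shape for the pool and colour for the set of libraries by Malat1. The lumbar/sacral points of visceral MNs (187, 274 and 244) lie below the other 6, which span 284 to 388.

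Vapb, an endoplasmic reticulum tether of other membranes, was at 48.7, 44.4 and 45.8 CPM in lumbar/sacral visceral MNs and at 32.6 to 40.4 in the 6 others (0.28, SE 0.10, adjusted p = 0.214). Tbk1 was at 54.2, 58.7 and 71.6 CPM against 42.5 to 53.0 (0.28, SE 0.11, adjusted p = 0.309). Neither was called.

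A longer list of 48 further genes of motor neuron disease and neuropathy, of which 45 were found and 44 tested, gave 11 higher and 17 lower in skeletal than visceral MNs (63.6% called against 66.7% of all genes), with a median of -0.07. Among them, Epha4, an ephrin receptor and modifier of ALS, was at 93.7 against 6.25 CPM (log2 difference 3.14, adjusted p = 4.52e-15), and Nefh, the heavy neurofilament subunit, at 68.2 against 19.5 CPM (1.60, adjusted p = 3.70e-12). Glt8d1, a glycosyltransferase, was lower in skeletal MNs (-0.93, adjusted p = 8.03e-13), as was the neuregulin receptor Erbb4 (78.7 against 539 CPM, -1.59, adjusted p = 0.0177), the latter in only 6 of 9 libraries. Between alpha and gamma MNs 5 of 43 were higher and 3 lower, or 18.6% called against 31.1% of all genes. The higher genes included Erbb4 (0.97, adjusted p = 1.65e-05), Epha4 (0.97, adjusted p = 7.12e-06) and Reep1, an endoplasmic reticulum shaping protein (0.45, adjusted p = 9.27e-07). The difference of Erbb4 was 0.61 within the lower and 1.26 within the higher Malat1 set. These alpha MN values include the library labelled cervical replicate 2, and values without it are not given.

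Among 65 tested partners and paralogs of the 36 genes, 13 were higher and 23 lower in skeletal than visceral MNs, or 55.4% called against 66.7% of all genes. The vesicle priming paralogs of Unc13a differed more than Unc13a itself, with Unc13c at 42.2 against 238 CPM (-2.25, adjusted p = 1.12e-08) and Unc13b at 43.2 against 165 CPM (-1.83, adjusted p = 1.60e-13). Stmn1, a stathmin paralog of Stmn2, was lower in skeletal MNs (-1.15, adjusted p = 1.46e-10), as was the dynein light chain Dynll1 (-1.03, adjusted p = 1.35e-12). Between alpha and gamma MNs 11 were higher and 8 lower, or 29.2% against 31.1%. Unc13c was at 101 against 20.7 CPM (2.03, adjusted p = 6.21e-07), Stmn4 at 16.9 against 48.0 CPM (-1.29, adjusted p = 5.76e-07), the kinesin Kif5b at 172 against 92.1 CPM (0.84, adjusted p = 1.84e-08), and Gemin8, a subunit of the SMN complex, at 12.2 against 4.73 CPM (0.80, adjusted p = 0.000333). For Unc13c the difference was 1.71 within the lower and 2.27 within the higher Malat1 set. Here too the alpha MN values include the library labelled cervical replicate 2.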

How the data were processed

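Nuclei sorted from 3 pools of 4 mice in 3 regions gave 9 libraries. Reads had been mapped by the authors to a pre-mRNA version of GRCm38 (Cell Ranger 3.1.0), so intronic reads count, and they used Seurat to filter, normalize and cluster. The matrix they deposited holds SCTransform-corrected counts per nucleus, a model score and not raw counts, so no count model was fitted and raw depth is unknown. Corrected totals were 3219 to 16554 per nucleus and 9751375 to 19432614 per library.

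Values were summed per library and class or skeletal cluster (at least 10 nuclei) and scaled to CPM. Differences were tested with limma 3.58.1 (trend, R 4.3.3) on log2(CPM + 5), keeping genes that reached 10 CPM in 3 or more sums, with library as a term, and called at adjusted p under 0.05. Regions were tested over 9 sums. Same-numbered libraries come from the same mice, so the replicate pairs them (their deviations from region means correlated at 0.34 to 0.92 in replicates 1 and 2 and at -0.22 to 0.85 in replicate 3). With 3 pools, p-values over libraries treat regions of a pool as separate samples. Named genes were, per comparison, those called at 2-fold and the next largest called up to 8, and 1 gene of the longer lists that the rule would name is not reported here. The 36 genes and all lists were chosen with earlier results of these data known. Gene names were matched to those in the matrix, through RefSeq synonyms where the matrix held another name, and sequences came from RefSeq. Scanpy 1.11.5 marked 164 nuclei (1.02%) as doublets, which were kept. Other scalings, pseudocounts, filters, means over nuclei, left-out libraries and pools, doublet removal and library sets were tried.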

Additional observations from a re-analysis of the deposited data

Results flagged for a closer look

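Over the 216 groups of 9 sums (36 genes in 3 classes and 3 skeletal clusters), 9 held a library whose gap to its nearest neighbour exceeded Dixon's critical share of the group's range, and chance alone gives about 1 in 20 groups. Hspb1 was at 14.4 CPM in visceral MNs of the library labelled thoracic replicate 2, with 7.13 in the next, and at 5.51 against 2.72 in interneurons of the same library. Tia1 was at 138 CPM in S2 of the library labelled cervical replicate 2, with 94.0 in the next. Plekhg5 was at 40.8 CPM in S3 of lumbar/sacral replicate 3 (next 26.6), and Matr3 at 81.2 CPM in S3 of cervical replicate 1 (next 57.5). Cervical replicate 3 was the lowest for Uba1 in interneurons (15.9 CPM, next 22.5), Kif5a in S1 (173 CPM, next 222), Dync1h1 in S3 (181 CPM, next 211) and Chchd10 in visceral MNs (1.87 CPM, next 6.24). The causes of these values were not tested.

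The region effect on Stmn2 differed between visceral MNs and each of the other classes. The difference of the log2 region effects was 0.56 between skeletal and visceral MNs (SE 0.13, adjusted p = 0.0329) and -0.45 between visceral MNs and interneurons (SE 0.09, adjusted p = 0.0138, with 8.94% of all genes called), by limma on differences within libraries. Visceral MNs exceeded interneurons by 0.38 in lumbar/sacral and by 0.83 in the other libraries. Between skeletal MNs and interneurons the difference was 0.12 (SE 0.14, limma adjusted p = 0.768). The region difference within visceral MNs was not called in the main fit. Cluster V8 held 30.9% of lumbar/sacral visceral nuclei.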

How the results depend on the processing

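No difference of a named gene between classes or skeletal clusters changed direction under any alternative in which the gene was tested. Of their values under all alternatives together 917 kept the call and 71 lost it. Cases in which a gene did not pass the filter are not counted. With at least 10 corrected counts in every sum, 31 of the 42 named differences were tested. Leaving out 1 library or 1 pool (replicate) in turn gave 18 to 24 disease genes called between skeletal and visceral MNs, 16 to 21 between skeletal MNs and interneurons, 8 to 13 between visceral MNs and interneurons, 3 to 14 between alpha and gamma MNs, 5 to 15 between Type 3 and alpha MNs, 2 to 3 between Type 3 and gamma MNs, and 0 in each region comparison (there, single libraries only). The lowest counts between alpha and gamma MNs, 4 and 3, came without replicate 1 and without replicate 3, and the highest between Type 3 and alpha MNs without cervical replicate 2. Without the library term 4 were called between visceral MNs and interneurons, 4 between alpha and gamma MNs and 5 between Type 3 and alpha MNs. In that fit 17 of the 22 calls between skeletal and visceral MNs were kept, and 16 of the 18 between skeletal MNs and interneurons. The replicate block, which pairs libraries of the same mice, called 1 disease gene (Stmn2) between regions in visceral MNs and changed no other region call. Settings chosen after seeing the data were the library set term, which also called 1, the 5 libraries with higher Malat1 alone, which called 2 between alpha and gamma MNs and 3 between Type 3 and alpha MNs, and these without cervical replicate 2, which called 7 between visceral MNs and interneurons. Fewer libraries enter these fits. Scaling by the median of ratios moved the share of calls that were higher in visceral MNs than interneurons over all genes from 61.2% to 49.3%, and shifted the median of all genes by -0.13 between regions in skeletal MNs. Thinning nuclei to 4600 corrected counts lowered the median share of nuclei with a count over the 36 genes from 26.2% to 15.6% in skeletal MNs, from 24.2% to 14.4% in visceral MNs and from 22.8% to 14.8% in interneurons. The thinned shares leave out nuclei below that total. Genes under 10 CPM rest on few counts and their levels are the least certain.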
